A study of Rattus norvegicus with 6 samples.

Results

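Complex I, the NADH:ubiquinone oxidoreductase of the mitochondrial inner membrane, was followed between immature and mature rat beta cells through the array's probe sets whose single gene symbol starts with Nduf. There were 41 such probe sets for 37 genes, among 15310 probe sets with 1 gene symbol and 29214 on the array in all. Of these, 35 probe sets (32 genes) stood for structural subunits and 3 for assembly factors named Ndufaf, which were kept apart. The other 3 were counted separately from both, namely 1 of Ndufa4 and 2 of Ndufs6-ps1. Of 37 nuclear subunit genes that had been listed, 5 are not analysed here, and so are 5 Ndufaf genes.

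The immature group held 3 preparations of beta cell-enriched cells from male Wistar rats at postnatal day 20, in the suckling period. The mature group held 3 preparations from male Wistar young adults of 250 to 280 g, which the series' design gives as 2 months old. Cells of both groups were sorted on light scatter and autofluorescence with no antibody, are called primary cultured without a culture time, and carried no transgene or treatment that the labels name. Preparations of an age are labelled as biological replicates, with the number of animals behind one left unstated. The p-values thus set the difference between the ages against the spread between these preparations, moderated over all probe sets tested. The authors deposited RMA-normalized log2 signals, and differences are adult minus day 20, so that -1 is a signal lower by a factor of 2 in adult.

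Complex I takes electrons from the NADH made by mitochondrial fuel oxidation, passes them through a flavin and a chain of iron-sulfur clusters to ubiquinone, and pumps protons across the inner membrane as it does so. Its matrix arm is built from an N module, which oxidises NADH, and a Q module, which reduces ubiquinone, and its membrane arm from a proximal and a distal part that pump protons. In beta cells the ATP that this proton gradient drives closes potassium channels and so couples glucose to insulin release.

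The preparations carried strong beta cell signals at both ages. Of 9 measured beta cell markers 7 were higher in adult, where 11.8% of all probe sets tested were. The insulin genes Ins1 and Ins2 did not pass and lay between 13.81 and 14.35 in every array, near the highest array value of 14.71. Their mean level, taken with the other beta cell markers, was 11.50 to 12.02 over the adult arrays and 10.13 to 10.82 at day 20. Beta cell markers were led by the incretin receptor Glp1r, 2.22 higher in adult (adjusted p = 0.0012), and the pan-endocrine genes, of which 9 of 12 were higher, by the prohormone processing enzyme Cpe (1.58, adjusted p = 0.0045).

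Genes of acinar cells, which make the digestive enzymes, also had high signals (means of 13.69 to 13.78 in adult and 13.62 to 13.83 at day 20). Of 19 measured, 13 read above 14 in every array, close to the highest array value of 14.71, where the scale leaves little room to show a change. Gp2, a zymogen granule protein, was 0.41 higher in adult (adjusted p = 0.0086). The acinar transcription factor Ptf1a, at 9.66 to 10.55, fell by 0.49 on the log2 scale (adjusted p = 0.029), a call lost without any 1 of the day 20 arrays (adjusted p up to 0.096). Another factor of these cells, Bhlha15, differed by -0.21 (adjusted p = 0.22).

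Markers of several other cell types were lower in adult. All 11 measured endothelial markers and all 11 markers of dividing cells were lower in adult, with mean levels of 5.74 to 5.88 against 6.70 to 7.32 and of 6.01 to 6.05 against 7.83 to 8.30. Of 12 fibroblast and stellate markers 5 were lower, of 12 leukocyte markers 1, of 8 duct markers 2 with 1 higher, of 5 alpha cell markers 1, and of 6 markers of delta, PP and epsilon cells 5. Over all probe sets tested 11.1% were lower and 11.8% higher. The shares of leukocyte markers lower (8.33%) and of duct markers higher (12.5%) were near these. The largest falls of these lists were those of Emcn (endothelial, -1.81), Rrm2 (dividing, -2.72), Vim (fibroblast and stellate, -2.81), Cd68 (leukocyte, -0.88), Cftr (duct, -1.11), Ttr (alpha, -0.74) and Pyy (PP, -2.25), with adjusted p from 3.7e-05 to 0.022. That of Ttr was lost without adult replicate 1 or 2 (adjusted p up to 0.070). The duct list's rise was that of Epcam (0.37, adjusted p = 0.036), which passed in 1 of 6 left-out fits, without adult replicate 3. The part of these markers in the results below was not tested, and in sorted bulk RNA fewer cells of a type and less RNA per cell cannot be told apart.

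Many complex I subunit transcripts were lower in adult than in day 20 preparations, with day 20 signals 1.27- to 2.16-fold the adult ones where a fall passed. Of 35 subunit probe sets 17 fell and 1 rose at an adjusted p under 0.05 (limma over all 15310 probe sets), or 48.6% lower, where 11.1% of all probe sets tested were lower and 11.8% higher. By gene, 16 of 32 subunit genes fell, 1 rose, 14 did not pass and 1 had probe sets that disagreed. The median log2 difference over the subunits was -0.30, with a range from -1.11 for Ndufa9 to 0.57 for Ndufa10, against a median of 0.01 over all probe sets tested. Adult arrays lay wholly below day 20 arrays for 18 subunit probe sets and wholly above for 5, where these were 19.2% and 20.6% of all probe sets.

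The mean over the 35 subunit probe sets was 9.52, 9.69 and 9.67 in adult replicates 1 to 3 and 9.81, 9.85 and 9.84 in the day 20 replicates. Every adult array was thus below every day 20 array, and adult replicate 1 was the farthest below. That array was the lowest of the 3 adult arrays for 27 of 35 subunit probe sets, where the like share of all probe sets was not counted. It had the highest mean of 12 pan-endocrine secretory genes, at 11.24, against 10.55 and 10.73. Whether its low subunit signal and its high endocrine mean go together was not tested. At day 20 this endocrine mean was 9.95, 9.39 and 10.40.

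Fewer subunit probe sets were lower when any 1 array was left out. There were 12, 14 and 13 without adult replicates 1 to 3, and 13 without day 20 replicate 3. The share of all probe sets that were lower was not counted for these fits. Their counts thus do not tell whether the drop is particular to the subunits. Without day 20 replicate 1, 10 subunit probe sets were lower, where 8.62% of all probe sets were, and without day 20 replicate 2, 7 were, where 7.63% of all were. With adult replicate 1 and day 20 replicate 2 both left out, the arrays at the ends of the endocrine mean, 4 were lower, where 6.52% of all were. With the endocrine mean as a covariate, 1 of 35 subunit probe sets was lower, that of Ndufa9, a share near the 3.31% of all probe sets. With this covariate, which differs with age itself, 24 of the 35 had a negative difference, and the median over the subunits was -0.20. The 17 that fell were all among the 24, but they had been picked as negative in these same arrays. Their sign was thus largely set beforehand.

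**Figure D1:**
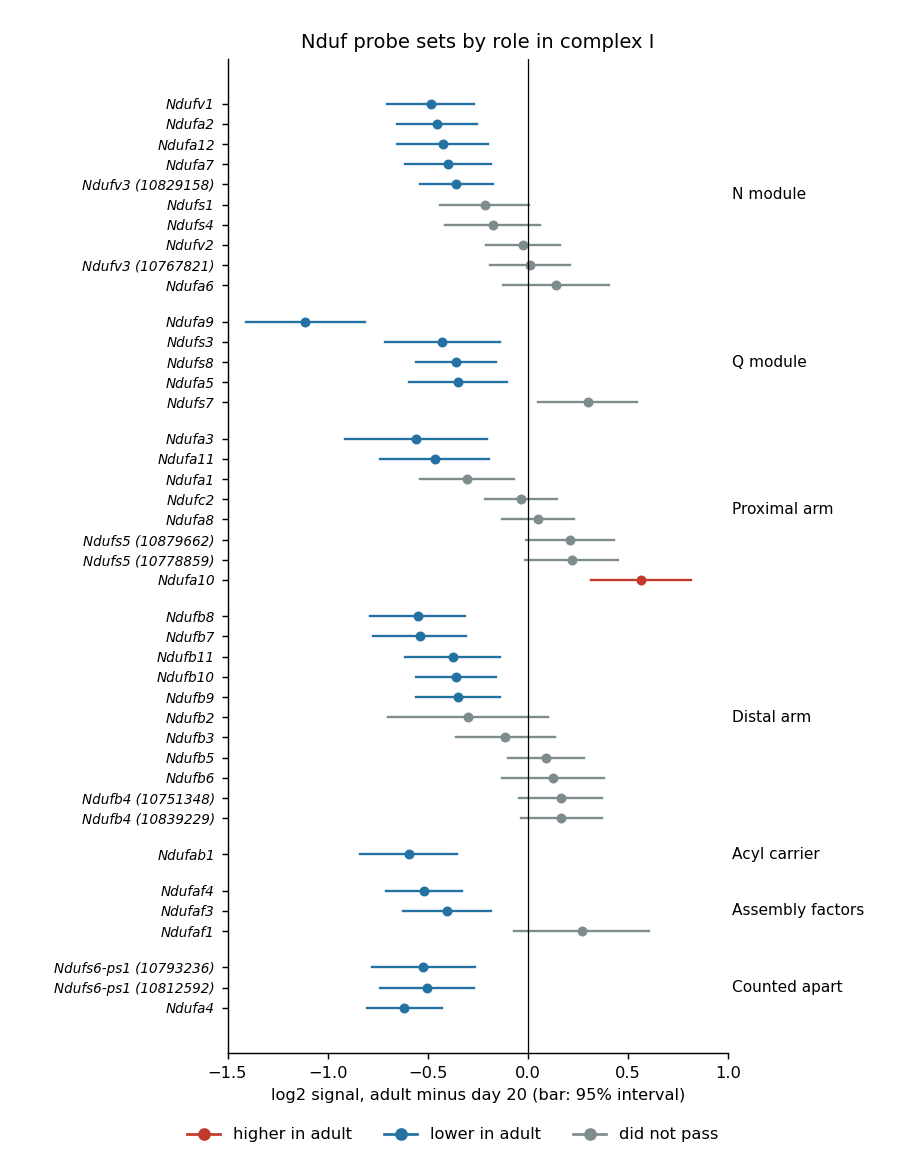
Log2 difference (adult minus day 20) of each of the 41 Nduf probe sets, with its 95% interval from the limma fit, grouped by role. Blue points passed as lower in adult, the red point as higher, and grey points did not pass at an adjusted p of 0.05. Of the subunits, 17 are blue, 1 is red (Ndufa10) and 17 are grey.

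In the N module, the tip of the matrix arm that binds NADH, 5 of 10 probe sets fell and 0 rose. Ndufv1, which holds the flavin and the NADH site, read 9.53, 9.76 and 9.66 in the adult arrays and 10.23, 10.14 and 10.04 at day 20. No adult array reached the lowest day 20 array, and the difference of -0.49 (SE 0.096, adjusted p = 0.0078 in limma) made the day 20 signal 1.40-fold the adult one. Ndufa2, an accessory subunit with a thioredoxin-like fold, read 7.95, 7.85 and 8.04 in adult against 8.41, 8.46 and 8.34, a difference of -0.45 (SE 0.089, adjusted p = 0.0073). Both calls held when any 1 of the 6 arrays was left out. Ndufa12 and Ndufa7, also accessory subunits, fell by 0.43 and 0.40 on the log2 scale (adjusted p = 0.016 and 0.017). Both calls were lost without day 20 replicate 2, that of Ndufa7 also without adult replicate 3, with the adjusted p reaching 0.064 and 0.067.

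Other core parts of the N module did not pass. Ndufs1, the large iron-sulfur subunit, read 8.94, 8.87 and 8.89 in adult and 8.94, 9.19 and 9.22 at day 20, where day 20 replicate 1 lay at the adult level (difference of -0.21, 95% interval -0.44 to 0.01, adjusted p = 0.16). Ndufv2, the partner of Ndufv1 with its own iron-sulfur cluster, differed by -0.03 (-0.21 to 0.16), so that a fall as large as that of Ndufv1 lay outside its interval. Ndufs4 and Ndufa6, accessory subunits, differed by -0.18 (-0.41 to 0.06) and 0.14 (-0.13 to 0.40).

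Ndufv3, a small accessory subunit of the NADH-oxidising tip, was measured by a pair of probe sets that did not read alike. Probe set 10829158 read 7.69, 7.69 and 7.61 in adult against 8.06, 7.998 and 8.002, with no overlap (difference of -0.36, adjusted p = 0.013), a call lost without adult replicate 3 (adjusted p = 0.055). Probe set 10767821 read 10.59, 10.68 and 10.76 against 10.71, 10.58 and 10.70, with the ages interleaved (difference of 0.01, 95% interval -0.19 to 0.21). The sign of the latter turned negative with a second quantile normalization. The difference between the probe sets was not tested.

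The Q module, where electrons reach ubiquinone, had 4 of 5 probe sets lower in adult and 0 higher. It held the largest fall of all Nduf probe sets, that of Ndufa9, an accessory subunit that binds NADPH where the matrix arm meets the membrane arm. Ndufa9 read 8.68, 9.12 and 9.14 in the adult arrays and 9.97, 10.13 and 10.16 at day 20. No adult array came near the lowest day 20 array, and the gap between the ages exceeded the spread within either. The difference was -1.11 (SE 0.13, adjusted p = 7.5e-04 in limma), or a 2.16-fold higher signal at day 20, and it held with every array left out in turn (-1.19 to -0.96, adjusted p up to 0.0047).

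The core subunits of the Q module went different ways. Ndufs3, which packs against the quinone site, read 8.54, 8.98 and 8.99 in adult and 9.25, 9.27 and 9.28 at day 20 (difference of -0.43, adjusted p = 0.040). The call was lost without adult replicate 1, which lay well under the other adult arrays, and without any 1 of the day 20 arrays (adjusted p up to 0.10). Ndufs8, which carries iron-sulfur clusters towards ubiquinone, fell by 0.36 on the log2 scale (adjusted p = 0.019), but did not pass when adult replicate 2, day 20 replicate 1 or day 20 replicate 2 was dropped, where the adjusted p reached 0.071. Ndufs7, which bears the last cluster before ubiquinone, read 10.64, 10.86 and 11.02 in adult against 10.48, 10.59 and 10.55. All its adult values lay above day 20, but the difference of 0.30 (95% interval 0.05 to 0.55) did not pass (adjusted p = 0.084). Without adult replicate 1, the lowest of the adult arrays, it did (0.40, adjusted p = 0.026).

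Nearest to the threshold among the falls were Ndufa5 on the inside and Ndufa1 on the outside. Ndufa5, an accessory subunit of the Q module, read 7.29, 7.18 and 7.04 in adult and 7.47, 7.40 and 7.68 at day 20 (difference of -0.35, adjusted p = 0.046). Its adult and day 20 values nearly met, and the call was lost without adult replicate 2 or 3 or any 1 of the day 20 arrays (adjusted p up to 0.16). Ndufa1, a small membrane subunit of the proximal arm, read 8.77, 9.08 and 8.91 against 9.32, 9.17 and 9.17 (difference of -0.30, adjusted p = 0.066) and passed without adult replicate 2 (adjusted p = 0.044).

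**Figure D2:**
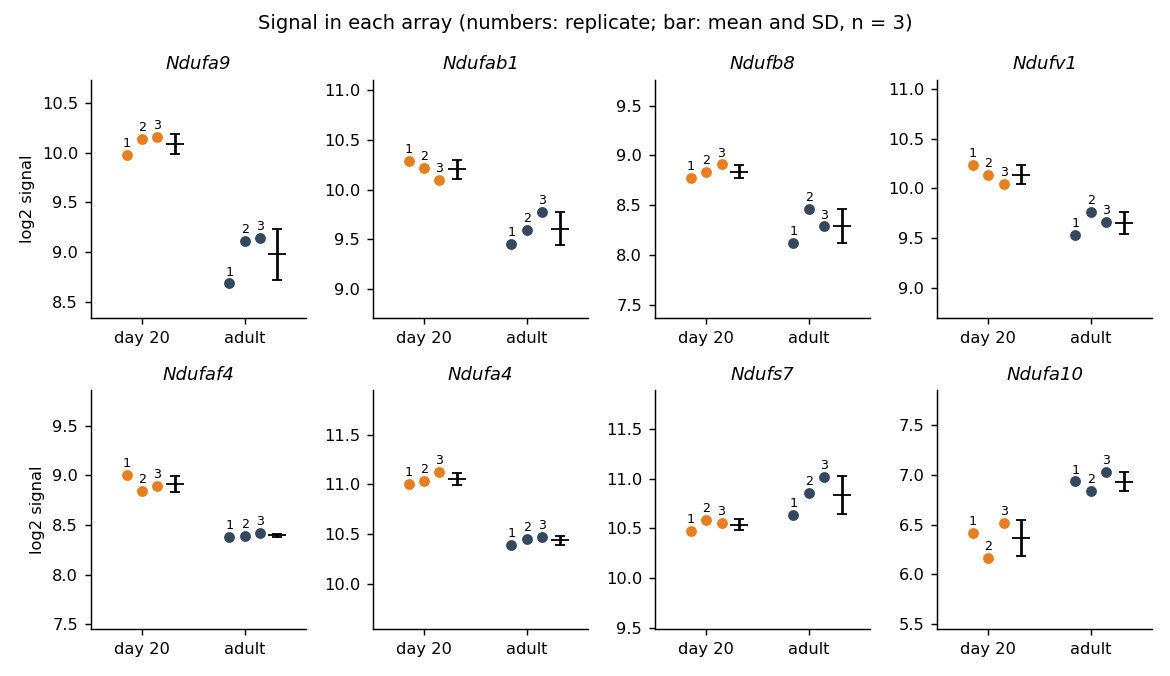
Log2 signal in each array for 8 members, day 20 (orange) and adult (dark), with the replicate number above each point and the mean and SD (n = 3) beside them. All panels span the same number of log2 units. The ages are apart in each panel, with adult lower for Ndufa9, Ndufab1, Ndufb8, Ndufv1, Ndufaf4 and Ndufa4 and higher for Ndufs7 and Ndufa10.

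In the proximal part of the membrane arm 2 of 8 probe sets fell (25.0%) and 1 rose (12.5%), with a median difference of 0.01. Over all probe sets tested 11.1% were lower and 11.8% higher, so the share that rose was near that of all. Ndufa3, a small membrane subunit, read 8.82, 9.47 and 9.20 in adult against 9.87, 9.67 and 9.63 (difference of -0.56, SE 0.16, adjusted p = 0.032). Its adult values spread widely, and the call was lost when adult replicate 1, adult replicate 3, day 20 replicate 1 or day 20 replicate 2 was dropped, with the adjusted p reaching 0.11. Ndufa11, which sits where complex I meets complex III in the supercomplex, fell by 0.46 on the log2 scale (adjusted p = 0.024), and dropping adult replicate 1 or either of day 20 replicates 1 and 2 ended that call (adjusted p to 0.084). Ndufc2 and Ndufa8, also of this part, differed by -0.04 (95% interval -0.22 to 0.14) and 0.05 (-0.13 to 0.23).

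The only subunit that rose was Ndufa10, an accessory subunit of the nucleoside kinase fold. Its probe set 10889764 read 6.94, 6.84 and 7.03 in adult and 6.41, 6.17 and 6.52 at day 20. All adult values lay above day 20, and the difference of 0.57 (SE 0.11, adjusted p = 0.0071) was a 1.48-fold higher signal in adult that held with each array left out in turn (adjusted p up to 0.030). These signals lay near the arrays' medians of 6.35 to 6.39. A further probe set, annotated to both Ndufa10 and its near copy Ndufa10l1 and so outside the count, read 10.36, 10.61 and 10.61 in adult and 10.75, 10.73 and 10.80 at day 20. It thus ran the other way, at -0.24 (SE 0.099, adjusted p = 0.17 over all probe sets of the array).

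Ndufs5, an intermembrane-space subunit of the proximal arm, was represented by a pair of probe sets that gave like values. Probe set 10879662 read 10.38, 10.49 and 10.54 in adult against 10.12, 10.30 and 10.36, and probe set 10778859 read 10.60, 10.74 and 10.78 against 10.32, 10.54 and 10.60. Adult was above day 20 in every array of both, by 0.21 and 0.22, without passing (adjusted p = 0.16 and 0.17).

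The distal part of the membrane arm had 5 of 11 probe sets lower in adult (45.5%) and 0 higher, against 11.1% and 11.8% of all tested. Ndufb8, a membrane subunit often used as an antibody marker of assembled complex I, read 8.12, 8.46 and 8.29 in adult and 8.77, 8.83 and 8.91 at day 20. Its groups did not overlap, at a difference of -0.55 (SE 0.11, adjusted p = 0.0068). Ndufb7, which faces the intermembrane space, read 8.49, 8.77 and 8.63 against 9.21, 9.25 and 9.05, a difference of -0.54 (SE 0.10, adjusted p = 0.0065). Both held with each array left out in turn (adjusted p up to 0.025 and 0.029). Ndufb11, Ndufb10 and Ndufb9, further subunits of this part, fell by 0.38, 0.36 and 0.35 on the log2 scale (adjusted p = 0.032, 0.018 and 0.026). Each of these 3 calls was lost without day 20 replicate 2 and at least 1 other array (adjusted p up to 0.094, 0.067 and 0.089).

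The remaining distal subunits spread around 0. Ndufb2, which varied widely within both ages, read 8.06, 8.74 and 8.41 in adult and 8.94, 8.67 and 8.49 at day 20 and overlapped (difference of -0.30, 95% interval -0.70 to 0.10). Ndufb3, Ndufb5 and Ndufb6 differed by -0.11, 0.09 and 0.13, with intervals that hold 0. The probe sets of Ndufb4, 10751348 and 10839229, differed by 0.16 and 0.17 (adjusted p = 0.25 and 0.22), both from day 20 values of 10.18 to 10.55 and adult values of 10.40 to 10.67. Whether the parts of complex I differ from each other was not tested.

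Ndufab1, the mitochondrial acyl carrier protein, sits in complex I at more than 1 place and also serves fatty acid synthesis and iron-sulfur cluster assembly in the matrix. It read 9.45, 9.60 and 9.78 in adult and 10.29, 10.22 and 10.10 at day 20. With no overlap and a difference of -0.59 (SE 0.11, adjusted p = 0.0050), its day 20 signal was 1.51-fold the adult one, and the call held with each array left out in turn (adjusted p up to 0.024).

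Of the 3 Ndufaf assembly factors, which help build complex I and are not part of it, 2 fell and 0 rose. Over all probe sets tested 11.1% were lower and 11.8% higher. The median difference of the 3 was -0.40. Ndufaf4 and Ndufaf3 work together on the Q module. Ndufaf4 read 8.38, 8.39 and 8.42 in adult and 9.0002, 8.84 and 8.90 at day 20. The adult values were nearly identical and all below day 20 (difference of -0.52, SE 0.084, adjusted p = 0.0032, held with each array left out in turn). Ndufaf3 read 6.96, 7.10 and 7.18 against 7.58, 7.49 and 7.37 (difference of -0.40, adjusted p = 0.018), and without day 20 replicate 1 or without replicate 2 it did not pass (adjusted p to 0.063), which left 1 of 3 lower.

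Ndufaf1, which acts on the membrane arm, read 7.32, 7.05 and 7.04 in adult and 6.54, 6.96 and 7.10 at day 20. The ages overlapped (difference of 0.27, 95% interval -0.07 to 0.61, adjusted p = 0.25). Assembly factors of complex I with other names were measured for 9 genes, of which 1 was lower and 1 higher, with a median difference of 0.09. These shares (11.1% each) were near those of all probe sets tested, 11.1% lower and 11.8% higher. Aifm1, a flavoprotein needed for the import of respiratory chain subunits, fell by 0.54 on the log2 scale (adjusted p = 0.0056). Dmac2, which acts on the distal membrane arm, was 0.46 higher in adult (adjusted p = 0.0088). The MCIA partners of Ndufaf1 among them, Ecsit, Acad9 and Tmem126b, differed by -0.22, 0.10 and 0.09 and did not pass.

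Ndufa4 and Ndufs6-ps1 carry the family name without counting as subunits here. Ndufa4, first described in complex I and now assigned to cytochrome c oxidase, read 10.39, 10.45 and 10.47 in adult and 11.01, 11.03 and 11.12 at day 20. The spread within each age was small next to the gap between them (difference of -0.62, SE 0.083, adjusted p = 0.0014, held with each array left out in turn), and with the endocrine covariate it still passed (-0.63, adjusted p = 0.037).

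Ndufs6-ps1 is a pseudogene in the RefSeq rat table, where Ndufs6 is among its older symbols, and signal from a close copy of a gene cannot be told apart from that of the gene. Its probe set 10793236 read 9.39, 9.53 and 9.68 in adult against 10.23, 9.96 and 9.97, and probe set 10812592 read 8.82, 8.99 and 9.06 against 9.61, 9.39 and 9.38. Both fell, by 0.52 and 0.50 on the log2 scale (adjusted p = 0.011 and 0.0093), with no overlap between the ages.

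The subunits spanned a wide range of signal. Split at the subunits' median mean signal of 9.89, a division made after the values were seen, 6 of 18 brighter subunit probe sets fell and 0 rose, with a median difference of -0.01. Of the 17 dimmer ones 11 fell and 1 rose, with a median of -0.36. Among all probe sets tested, 16.2% of those at or above this value were lower in adult and 19.9% higher. Of those below it, 10.6% were lower and 10.9% higher. Whether the brighter and dimmer subunits differ was not tested.

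**Figure D3:**
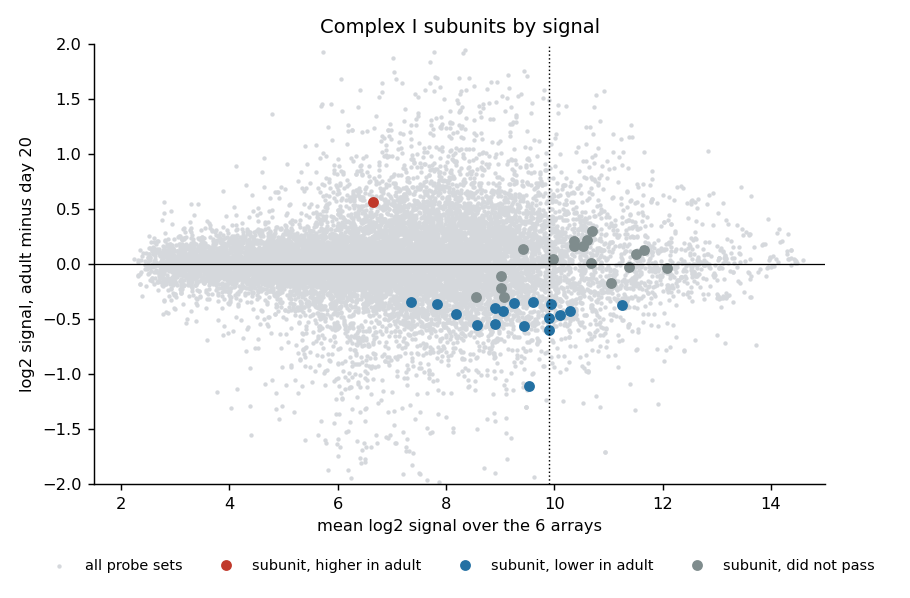
Log2 difference (adult minus day 20) against the mean log2 signal over the 6 arrays for the probe sets tested (light grey, with 46 of 15310 beyond the axes) and the 35 complex I subunit probe sets (coloured by call); the dotted line is the subunits' median signal of 9.89. The blue points lie on both sides of the line, 11 to its left and 6 on it or to its right.

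Of 46 measured genes of complexes II to IV and the ATP synthase, 18 were lower and 1 higher in adult, or 39.1% lower, where 11.1% of all probe sets were lower and 11.8% higher. Their median difference was -0.25. Unlike the subunits of complex I, these lists also hold assembly factors. They are Sdhaf1, Sdhaf2 and Sdhaf3 for complex II and Bcs1l, Ttc19, Uqcc2 and Uqcc3 for complex III. Complex III had 6 of 11 lower, led by the small subunit Uqcr11, which fell by 0.77 on the log2 scale (adjusted p = 0.0023). Complex IV had 4 of 12 lower and 1 higher. Cox6a1, a regulatory subunit, fell by 0.84 (adjusted p = 0.0026), and Cox7a2l, which tethers complex III to complex IV, was 0.35 higher in adult (adjusted p = 0.031), a call kept without adult replicate 1 and lost without any other single array (adjusted p up to 0.12). The ATP synthase had 7 of 16 lower, led by the stalk subunit Atp5po (-0.61, adjusted p = 0.0031). Complex II, which feeds ubiquinone from succinate, had 1 of 7 lower, a share (14.3%) near that of all probe sets. This was its iron-sulfur subunit Sdhb (-0.47, adjusted p = 0.023). That call ended when adult replicate 1, adult replicate 3, day 20 replicate 1 or day 20 replicate 2 was dropped (adjusted p to 0.080). The other subunits, Sdha, Sdhc and Sdhd, differed by -0.15, -0.21 and -0.26 without passing. Their adult arrays lay wholly below day 20, as did those of 19.2% of all probe sets. The assembly factors Sdhaf1, Sdhaf2 and Sdhaf3 overlapped between the ages and differed by 0.01, 0.04 and 0.26.

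Of 13 measured regulators of mitochondrial biogenesis 1 was lower (7.69%) and 0 higher, a share lower in adult near the 11.1% of all probe sets, with a median difference of -0.03. Pprc1, a coactivator of the PGC-1 family, fell by 0.57 on the log2 scale (adjusted p = 0.0036). Its relatives Ppargc1a and Ppargc1b differed by -0.14 and -0.07, the respiratory gene activator Nrf1 by -0.03, Gabpa by -0.03, Yy1 by 0.03 and the mitochondrial DNA-packaging factor Tfam by -0.02, none of which passed.

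**Figure D4:**
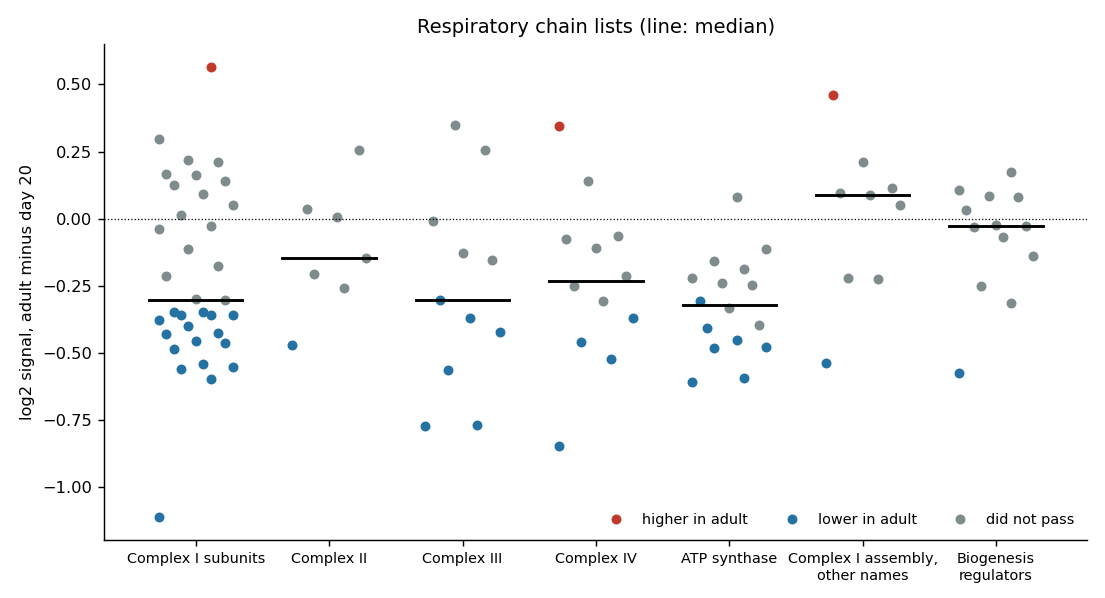
Log2 difference (adult minus day 20) of the complex I subunit probe sets and of the measured genes of other lists, 1 point per probe set (complex I) or gene (other lists), coloured by call, with the median as a black line. Medians run from -0.32 in the ATP synthase and -0.30 in complexes I and III to 0.09 in the assembly factors with other names.

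Promoter windows from RefSeq (build GRCr8, 250 bases before to 50 after the annotated start) were matched for 34 of the 37 genes. They were searched on both strands for letters known from the sites of factors of respiratory genes, namely GCGCATGC for the core of the NRF1 site, CCGGAAG for ETS factors such as GABPA, and AAGATGGCG for YY1. The end of the ETS letters can overlap the start of the YY1 letters. The YY1 letters were in 6 of 34 Nduf windows (17.6%) and in 1.73% of all 33469 windows, the ETS letters in 7 (20.6%) and 8.75%, and the NRF1 letters in 3 (8.82%) and 2.47%. Of the 19 windows of genes with a fall 3 held the YY1 letters, 3 the ETS letters and 2 the NRF1 letters, and of the other 15 windows 3, 4 and 1. A match is no evidence of binding.

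The windows of the largest fall and the largest rise are shown in full, since these are the ends of the range of response, with the YY1 letters in capitals. That of Ndufa9 is at chr4:161374121-161374420 and that of Ndufa10 at chr9:100489215-100489514, both on the minus strand. Neither holds the ETS or NRF1 letters, and that of Ndufa10 holds none of the 3.
Ndufa9: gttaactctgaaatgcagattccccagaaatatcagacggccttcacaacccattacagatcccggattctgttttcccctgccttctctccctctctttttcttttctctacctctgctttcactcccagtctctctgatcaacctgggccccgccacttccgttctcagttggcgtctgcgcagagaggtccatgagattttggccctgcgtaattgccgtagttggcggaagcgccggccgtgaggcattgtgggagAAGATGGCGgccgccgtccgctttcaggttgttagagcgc
Ndufa10: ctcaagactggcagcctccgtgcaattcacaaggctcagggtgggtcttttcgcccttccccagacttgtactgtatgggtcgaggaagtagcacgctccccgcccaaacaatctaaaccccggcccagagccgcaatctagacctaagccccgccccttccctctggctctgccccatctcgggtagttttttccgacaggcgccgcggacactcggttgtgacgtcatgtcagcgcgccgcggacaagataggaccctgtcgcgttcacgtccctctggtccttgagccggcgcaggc

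The 6 windows with the YY1 letters are shown around the match to compare its setting. All 6 matches ran in the direction of the gene and began 4 to 26 bases after the annotated start, and each holds the letters ATG, so that whether they mark a factor's site or a start codon is not told by the match. The stretches lie on the minus strand at chr18:28631839-28631868 (Ndufa2), chr7:115750283-115750312 (Ndufa6), chr4:161374141-161374170 (Ndufa9), chr1:253362896-253362925 (Ndufb8), chr2:47794891-47794920 (Ndufs4) and chr7:10110475-10110504 (Ndufs7).
Ndufa2: tttgctagcaAAGATGGCGgccgcaagccg
Ndufa6: cttccttagcAAGATGGCGgccgcggccag
Ndufa9: attgtgggagAAGATGGCGgccgccgtccg
Ndufb8: ggagaaggtgAAGATGGCGgcgtcccgggc
Ndufs4: tgcccacaggAAGATGGCGgcggtctcaat
Ndufs7: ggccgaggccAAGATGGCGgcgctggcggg

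Ndufa2, Ndufa9 and Ndufb8 of this set fell, whereas Ndufa6, Ndufs4 and Ndufs7 did not pass, with differences of 0.14, -0.18 and 0.30.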

How the data were processed

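Total RNA from 6 beta cell-enriched preparations was hybridised to whole-transcript arrays, 1 per preparation. The authors deposited 1 value per probe set and array on the log2 scale, made with RMA per the submitters' processing notes, with software, annotation and build not given in the sources used here. RMA corrects background, equalises the arrays' distributions and assumes that most genes do not differ. It gives no detection calls. That the scale is log2 was read from the values (1.73 to 14.71, array medians 6.35 to 6.39), and depth does not apply, so the number of arrays, 3 per age, limits precision.

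The platform annotation gave 1 symbol to 15310 probe sets, several to 323 and none to 13581, the last 2 kinds being unnamed here. Adult was compared with day 20 by lmFit and eBayes of limma 3.58.1 under R 4.3.3. The test was two-sided, p-values were adjusted over the 15310 probe sets (Benjamini-Hochberg), and the threshold was 0.05, without a filter on low signal. Other lists used 1 probe set per gene, the brightest over all arrays. Named with values in every array were the 2 largest passing changes per role, the 5 largest falls and rises, the members nearest the threshold, genes with several probe sets, Ndufa4, and the core subunits Ndufs1 and Ndufv1. The largest passing rise and fall of each other list were named too. The few others given so were chosen after their values were seen. The members and lists were chosen with earlier results of these data known. The fit was tested on simulated data.

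Alternatives were other scalings, removal of the 33.3% of probe sets with the lowest mean signal, other variance models, other sets of probe sets, the replicate number as a block, the mean of 12 pan-endocrine genes as a covariate, each array left out in turn and, added after seeing the data, 2 arrays left out together. Replicate numbers were not used to pair arrays in the main fit. Tables were joined with pandas 2.3.3 and numpy 2.4.6 in Python 3.11.15, and plots drawn with matplotlib 3.10.9.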

Additional observations from a re-analysis of the deposited data

How the results depend on the processing

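Of the values of named genes and probe sets under the alternatives, 599 kept their direction and side of the threshold, 92 lost their call, 5 gained one and 4 changed sign. The 4 were all of Ndufv3 (10767821), near 0 throughout: -0.018 with a second quantile normalization, -0.011 with the endocrine covariate, and from -0.030 to 0.054 with an array left out, negative without adult replicate 3 or day 20 replicate 2. The count of 17 lower subunit probe sets stayed at 13 to 18 under the 7 alternatives of scaling, filter, variance and probe sets, was 1 with the endocrine covariate and 4 with both arrays at the ends of the endocrine mean left out, and ranged from 7 to 14 with 1 array left out. The count of higher ones, 1, was 2 with array weights, 0 with the covariate and 1 to 2 with an array left out. Lower Ndufaf probe sets, 2, were 0 with the covariate, 1 with both arrays left out and 1 to 2 with 1 array left out, and their median difference, -0.40, was -0.26 with the covariate. The median of the subunits was negative under all 16 alternatives, from -0.35 to -0.20. The causes of these shifts were not tested, and the fits with arrays left out also hold fewer arrays. Of all probe sets, 11.1% were lower in the main fit, 3.31% with the covariate and 6.52% with both arrays left out. Without day 20 replicate 1 or 2, 8.62% and 7.63% were. For the other alternatives such a share was not counted.

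Deviations from the group means of same-numbered arrays correlated at -0.19, 0.19 and -0.21 over probe sets. Those of arrays with unlike numbers correlated from -0.30 to 0.37. With 3 arrays per age these values cannot tell whether preparations were handled in pairs. With the replicate block 10 subunit probe sets were lower and 1 Ndufaf probe set was, with the share of all probe sets not counted.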
